A study of Mus musculus with 20 samples.

Results

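Cytotoxic lymphocytes kill through a set of genes that NK cells, effector CD8 T cells and some innate-like T cells share, and 10 of them are described here in mouse thymocytes and thymic tumours with intact or lost Gfi1. They are Prf1, Gzma, Gzmb, Il2rb, Klrd1, Ctsw, Nkg7, Ccl5, Eomes and Tbx21. A probe set was taken as theirs where the platform annotation names that gene symbol alone, which gave 69 probe sets and 10 genes of the 19607 genes named on the array. RNA was measured on 20 arrays in 8 groups of C57BL/6 mice. Untreated thymocytes came from WT (2 arrays) and Gfi1 KO mice (2), and irradiated thymocytes from WT (3) and KO mice (3); the labels name neither the radiation dose, nor the interval after it, nor the allele of these KO mice. Tumours arose after the alkylating mutagen ENU in Gfi1f/f mice (WT, 3 arrays) and Mx1Cre+Gfi1f/f mice (KO, 3), or after ENU in such mice that also carried a Notch transgene, labelled Notch1-CT (Notch tumours, WT 2 and KO 2). All tumour mice received pIpC once a mediastinal tumour was seen by ultrasound. pIpC deletes Gfi1 only in carriers of Mx1Cre, a recombinase driven by the interferon-responsive Mx1 promoter, and it induces interferon by itself. By this design the deletion in tumours labelled KO follows tumour formation, and tumour cells were explanted some weeks later. The series asks how loss of Gfi1 alters expression in irradiated and tumour-derived thymocytes.

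A cytotoxic cell releases perforin (Prf1), which forms pores in the target membrane, and the granzymes (Gzma, Gzmb), serine proteases that enter through them. Ctsw encodes cathepsin W, a cysteine protease found in NK cells and CD8 T cells, and Nkg7 a membrane protein of cytotoxic granules. Il2rb is the beta chain that the receptors for interleukin-2 and interleukin-15 share, Klrd1 (CD94) is the partner chain of the NKG2 receptors, and Ccl5 is a chemokine made by effector and memory T cells. The T-box factors Eomes and Tbx21 (T-bet) switch on much of this programme. Gfi1 is a zinc finger protein that represses transcription in blood precursors and in developing lymphocytes. Most thymocytes are immature cells that carry both CD4 and CD8, in which this programme is largely silent.

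The arrays were read as follows before any result. Values are read as log2 signal, so that a difference of 1 is a change of 2-fold if the log base is 2. Arrays of the same group correlated with r between 0.936 and 0.988, apart from the KO Notch tumours at r = 0.871. The second KO Notch tumour array stood apart from the other tumours: Cd79a, a chain of the B cell receptor, was at 13.76 and Ms4a1 (CD20) at 12.89, against 9.55 and 7.29 on the first KO Notch array, while Dntt, a marker of immature thymocytes, was at 6.25 against 10.35. The mean of the 3 CD8 T cell markers (Cd8a, Cd8b1, Cd3e) was 10.04 on that array and at least 12.01 on every other tumour array, so results that rest on it are given with and without it. Gfi1 was read by 8 probe sets, and which exon each covers is not given. In KO untreated thymocytes 3 of the 8 were lower and 3 higher (the largest difference -6.31), and in irradiated KO thymocytes 5 were lower and 3 higher (from -2.44 to 1.37). Irradiated minus untreated, the 8 probe sets differed by -3.91 to 7.09 in KO and by -0.68 to -0.25 in WT thymocytes. The labels do not say that untreated and irradiated KO mice carry the same allele, and this was not tested. In the ENU tumours labelled KO no Gfi1 probe set passed the limma test (differences -0.65 to 0.11, smallest adjusted p = 0.391), and in Notch tumours 1 was lower (-4.51). Nothing in the labels says that arrays of a group are from different animals, and p-values may then reflect only technical spread. In these bulk samples, more cells of a type and more RNA per cell cannot be told apart.

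Motifs were looked for in the members' promoters because RUNX, T-box and STAT factors and GFI1 itself bind in the control regions of such genes. RefSeq promoters (build GRCm38.p6) were given for 6 of the 10 members: Prf1, Gzma, Gzmb, Nkg7, Eomes and Tbx21. Within the 250 bases before the start, and on both strands, TGTGGT (the RUNX core) was found in 4 of 6 members against 14% of 32851 promoters. The 4 members with a match are printed 5′ to 3′ on the gene's strand, with every match to a searched motif in capitals.
Prf1, chr10:61297586-61297835, plus strand: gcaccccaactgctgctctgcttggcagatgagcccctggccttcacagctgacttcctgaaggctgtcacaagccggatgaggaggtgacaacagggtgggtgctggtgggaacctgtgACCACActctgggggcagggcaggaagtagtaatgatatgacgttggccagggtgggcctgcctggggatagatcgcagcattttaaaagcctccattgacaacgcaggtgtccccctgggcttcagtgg
Gzma, chr13:113100982-113101231, minus strand: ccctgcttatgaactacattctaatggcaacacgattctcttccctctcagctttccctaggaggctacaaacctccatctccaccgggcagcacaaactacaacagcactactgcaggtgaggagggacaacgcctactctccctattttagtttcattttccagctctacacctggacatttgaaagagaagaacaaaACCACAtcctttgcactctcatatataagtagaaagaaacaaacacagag
Gzmb, chr14:56262335-56262584, minus strand: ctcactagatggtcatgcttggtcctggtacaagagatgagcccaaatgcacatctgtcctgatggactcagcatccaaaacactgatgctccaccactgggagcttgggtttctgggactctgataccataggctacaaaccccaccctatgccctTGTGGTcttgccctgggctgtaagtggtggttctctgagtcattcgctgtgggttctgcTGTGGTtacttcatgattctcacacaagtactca
Nkg7, chr7:43436888-43437137, plus strand: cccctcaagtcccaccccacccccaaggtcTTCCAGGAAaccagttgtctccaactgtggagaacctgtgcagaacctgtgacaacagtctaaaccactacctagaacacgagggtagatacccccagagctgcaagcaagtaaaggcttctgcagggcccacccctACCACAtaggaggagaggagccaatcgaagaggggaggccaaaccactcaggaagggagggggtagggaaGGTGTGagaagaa
In Prf1, Gzma and Gzmb the capitals mark TGTGGT or its reverse complement ACCACA, and in Nkg7 a STAT and a T-box match too. The RUNX letters lie 130 to 125 bases before the start of Prf1, 50 to 45 before Gzma, 93 to 88 and 34 to 29 before Gzmb, and 83 to 78 before Nkg7. Nkg7 also holds the T-box letters GGTGTG at 13 to 8 bases before the start (1 of 6 members, 16.3% of promoters) and a STAT palindrome, TTC and GAA with any 3 bases between, at 220 to 212 (1 of 6, 7.02%). AATCAC, the GFI1 core with flanking letters, was found in 0 of the 6 windows and in 9.14% of all promoters. A match is a run of letters, and no binding was measured here.

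The untreated thymocytes ask what Gfi1 loss alone does to these genes. Prf1, Gzma, Il2rb, Klrd1, Ccl5 and Eomes rose in KO thymocytes, from 1.35-fold for Ccl5 to 2.60-fold for Prf1, and no member fell. The 6 of 10 members that passed the limma test (adjusted p under 0.05 over all 12747 genes tested) include Eomes, which was tested only because it is high in KO. Of all genes tested, 6.79% were called higher and 5.49% lower. All 10 members had both KO arrays above both WT arrays, as had 28.6% of genes. The median difference over the members was 0.52, and that over all genes tested was -0.02.

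Among the granule effectors, Prf1 was at 8.74 and 8.68 on the WT arrays and at 10.03 and 10.15 on the KO arrays. Both KO arrays were more than 1 log2 unit above both WT arrays. Its difference was 1.38 ± 0.13 (limma estimate ± SE, adjusted p = 1.37e-06), and each of its 3 probe sets was called higher (0.87 to 1.64). Gzma was at 9.73 and 9.60 in WT and at 10.53 and 10.45 in KO thymocytes, again without overlap (0.83 ± 0.12, limma adjusted p = 0.000108). Gzmb was at 8.03 and 7.61 in WT and at 8.08 and 8.13 in KO thymocytes. The first WT array lay just under the KO arrays, and the difference of 0.29 ± 0.16 did not pass (limma adjusted p = 0.325). Ctsw (0.25 ± 0.15, limma adjusted p = 0.336) and Nkg7 (0.44 ± 0.23, limma adjusted p = 0.263) did not pass either, with KO arrays at 11.35 and 11.28 for Ctsw against WT arrays at 11.13 and 11.00.

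Of the surface and secreted members, Il2rb was at 9.90 and 9.61 in WT and at 10.63 and 10.56 in KO thymocytes. All 13 of its probe sets were higher in KO and 6 of them were called, and the gene's difference was 0.84 ± 0.14 (limma adjusted p = 0.000638). Klrd1 was at 8.57 and 8.34 in WT and at 9.18 and 8.95 in KO thymocytes (0.61 ± 0.14, limma adjusted p = 0.00726). Ccl5 was at 10.49 and 10.40 in WT and at 10.82 and 10.94 in KO thymocytes (0.44 ± 0.12, limma adjusted p = 0.0206). No single probe set of Gzma (0 of 4), Klrd1 (0 of 6) or Ccl5 (0 of 6) was called, although each had a positive difference. Of the 2 T-box factors, Eomes rose, from 7.33 and 7.58 in WT to 8.07 and 8.23 in KO thymocytes (0.69 ± 0.13, limma adjusted p = 0.00134). Its 8 probe sets ran from -0.44 to 1.80, and 2 of them were called higher. Among the thymocyte arrays Eomes was above the filter, an array's 40th percentile, only in KO untreated thymocytes, so it entered the test through the group in which it is high. Tbx21 was at 8.51 and 8.47 in WT and at 8.67 on both KO arrays, and its difference of 0.18 ± 0.11 did not pass (limma adjusted p = 0.365). In contrast to Prf1, its 7 probe sets did not point one way: the brightest had a difference of -0.26, 5 had positive differences, and none was called. With all 20 arrays in 1 fit, where the spread includes the tumours, Prf1 alone passed of the 10 (adjusted p = 0.0388; over 10 alternative settings 2.48e-07 to 0.0388). Without WT array 2 or KO array 1 Klrd1 did not pass (0.49 in each case; adjusted p = 0.116 and 0.135), Ccl5 did not pass without any 1 of the 4 arrays (0.38 to 0.50; adjusted p from 0.0769 to 0.215), and without KO array 1 there were 3 members called, with Eomes untested.

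**Figure D1:**
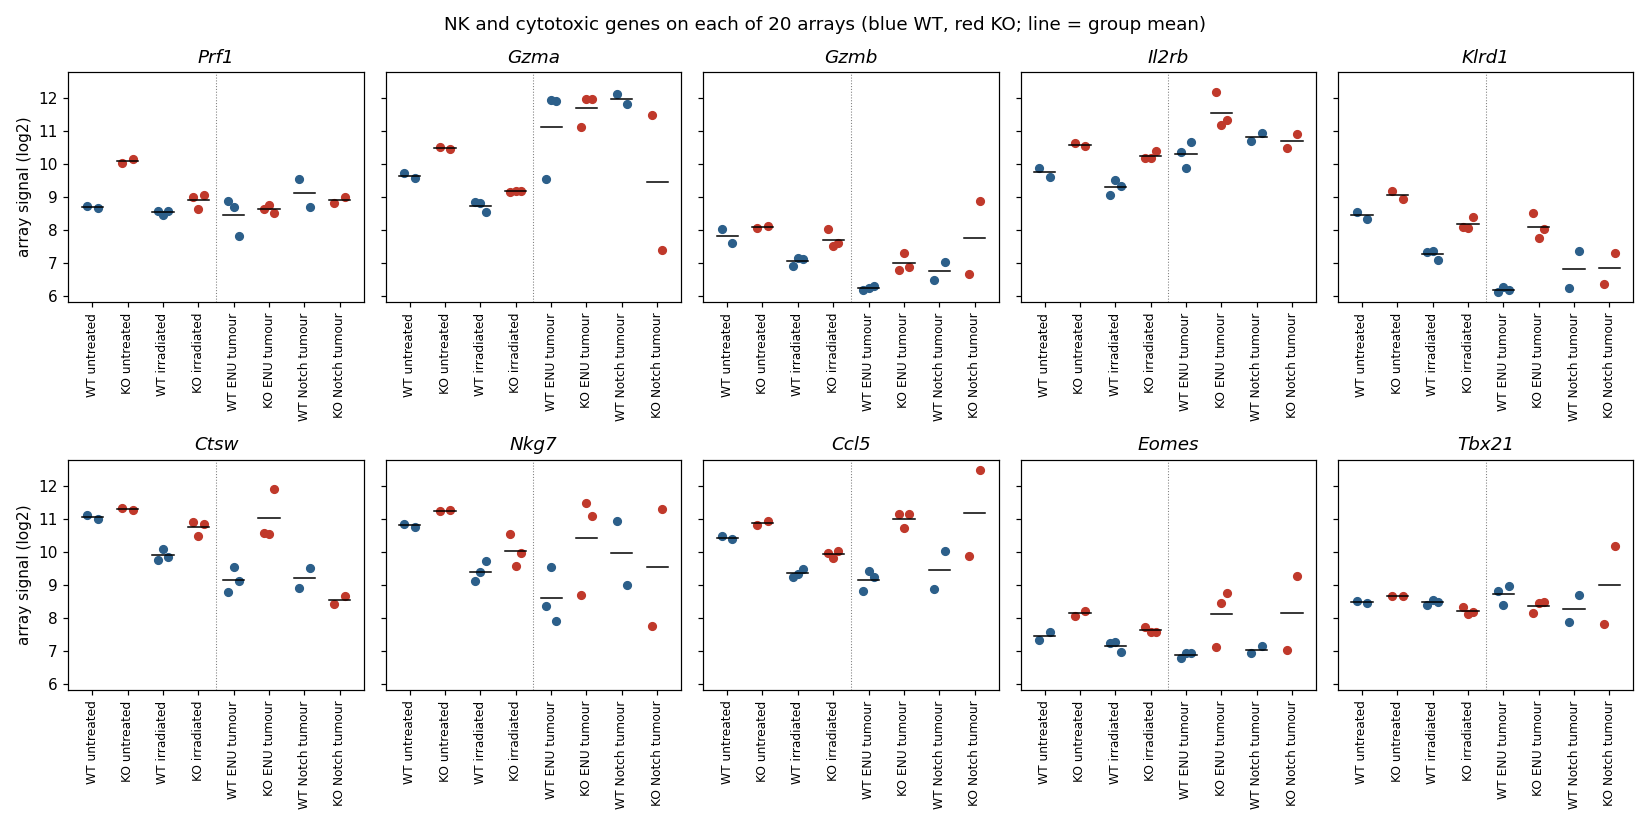
Log2 array signal (y axis) of the 10 NK and cytotoxic genes on each of 20 arrays in 8 groups (x axis); points are arrays, blue WT and red KO, and black lines are group means. In untreated thymocytes both KO arrays lie above both WT arrays in every panel, most widely for Prf1 (8.68 and 8.74 against 10.03 and 10.15), and the tumours to the right of the dotted line spread more widely, as Gzma does from 7.40 to 12.15.

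Other genes around the cytotoxic pathway were taken from broad lists by role. A listed gene need not belong to that role alone: Il7r is a chain of the interleukin-7 receptor, and Itgam is also found on macrophages. In KO untreated thymocytes 2 of the 4 further granzymes and death effectors tested were higher and 0 lower: the granzyme Gzmk (0.79 ± 0.15) and the cytokine Tnf (0.49 ± 0.16). Of 13 genes of granule processing and release 2 were higher and 0 lower, Cst7 (cystatin F, an inhibitor of granule proteases; 0.86 ± 0.15) and Lyst, a regulator of lysosome size (0.69 ± 0.14). Of 12 NK receptors 3 were higher and 0 lower: Slamf7 (0.91 ± 0.11), Cd7 (1.14 ± 0.17) and Klra5 (1.13 ± 0.22). Vav3 was the 1 of 12 genes listed with the adaptors that changed (0.84 ± 0.13). Of 15 genes listed under interleukin-2 and interleukin-15 signalling, Il7r (0.48 ± 0.12) and Il2ra (0.35 ± 0.11) were higher and 0 were lower. The transcription factors held the most calls, 10 higher and 1 lower of 23, led by Foxo1 (1.18 ± 0.13), Nfil3, which NK cell development needs (1.05 ± 0.12), Runx3, a RUNX factor of CD8 and NK cells (0.92 ± 0.12), and Klf2 (0.82 ± 0.12). Of 13 type 1 cytokine and chemokine genes 5 were higher and 0 lower, with Cxcr6 (1.16 ± 0.12), Il18rap (0.95 ± 0.12), S1pr1 (0.83 ± 0.12) and Xcl1 (0.81 ± 0.18) first.

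Markers of cells that could carry these transcripts were read on the same arrays. The 6 NK defining markers (Ncr1, Klrb1c, Klra8, Klra4, Klre1, Klrk1) were too dim to be tested in any fit, and only Klrb1c on 1 WT untreated array, Klra8 on 1 KO Notch tumour array and Klrk1 on 1 KO ENU tumour array exceeded the 40th percentile. Their mean was 6.79 and 7.04 on the WT untreated arrays and 6.77 and 6.79 on the KO untreated arrays, and single markers went both ways. Ncr1 (6.19 to 6.29 in WT, 6.62 to 6.88 in KO) and Klrk1 (6.90 to 7.16 in WT, 7.33 on both KO arrays) had KO arrays above WT arrays, and Klrb1c (7.65 to 8.51 in WT, 6.79 to 7.24 in KO) and Klre1 (6.32 to 6.70 in WT, 6.23 to 6.28 in KO) had them below. The part of NK cells in the members' rise was not tested. The 3 CD8 T cell markers had means of 13.53 to 13.55 in WT and 13.47 to 13.52 in KO untreated thymocytes, and 0 of 3 passed the limma test (differences all below 0, median -0.03). These genes are not restricted to CD8 T cells. Most thymocytes carry both CD4 and CD8, so the values cannot track CD8 T cells alone. Markers of other cells moved with the KO: 4 of 5 gamma delta T cell markers were higher, led by Maf (3.36 ± 0.12) and Cd163l1 (4.04 ± 0.18). Of the macrophage and dendritic cell markers 4 of 5 were higher, led by Itgax (0.70 ± 0.15), and of the B cell markers Cd79a was higher (0.68 ± 0.15). Among the thymocyte arrays Itgax and the gamma delta T cell marker Il23r exceeded the filter only in KO untreated thymocytes. Both entered the test through the group in which they are high, so their calls are a description. All 4 granulocyte markers were lower, Ngp most (-4.47 ± 0.18). Among the thymocyte arrays all 4 exceeded the filter only in WT, and S100a8 and S100a9 only in untreated WT. They entered the test through groups in which they are high, so this count is a description. Of the 2 genes listed under innate-like T cells, Zbtb16 was at 8.15 to 8.22 in WT and at 8.27 to 8.49 in KO and was not called. Cd1d1, which is not made by these cells alone, was called lower (9.98 to 10.34 in WT, 9.54 to 9.66 in KO). Of the 5 double-positive thymocyte markers 0 were higher and 1 lower. The part of gamma delta and innate-like T cells, macrophages, dendritic cells and B cells in the members' rise was not tested.

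**Figure D2:**
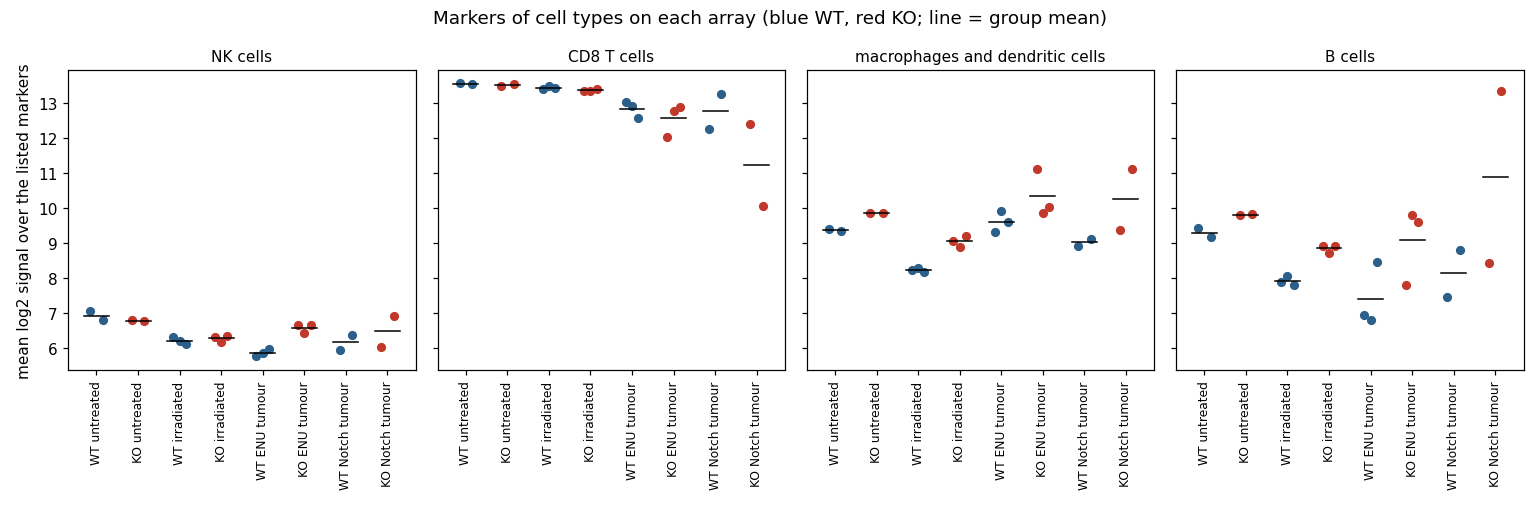
Mean log2 signal over the listed markers of NK cells (6 genes), CD8 T cells (3), macrophages and dendritic cells (6) and B cells (2) on each array (y axis) by group (x axis); points are arrays, blue WT and red KO, and lines are group means. The NK markers stay below 7.1 on every array, and the macrophage and B cell markers are higher in KO than in WT thymocytes. On 1 KO Notch tumour array the B cell markers reach 13.3. The CD8 T cell markers are not restricted to CD8 T cells.

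In irradiated thymocytes, where the KO question is asked again under stress on separate arrays, 9 of the 10 members were higher in KO than in WT and 0 were lower. Of all genes tested, 8.12% were called higher and 6.81% lower. The rises ran from 1.29-fold for Prf1 to 1.93-fold for Il2rb, and the median difference over the 10 members was 0.61, against -0.03 over all genes tested. The 3 KO arrays lay above the 3 WT arrays for 8 members, as for 11.8% of genes. The 9 called and the 8 without overlap both include Eomes and Gzmb. Eomes was below the filter on every irradiated array and was tested only because it is high in KO untreated thymocytes. Gzmb was below the filter on all irradiated arrays but KO array 1. This comparison shares no array with the untreated one, but both draw on 1 estimate of the spread.

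The receptor chains and the protease Ctsw changed most. Il2rb was at 9.06, 9.52 and 9.35 in WT and at 10.19, 10.20 and 10.40 in KO irradiated thymocytes (0.95 ± 0.12, limma adjusted p = 1.63e-05). Klrd1 was at 7.33, 7.37 and 7.10 in WT and at 8.10, 8.08 and 8.41 in KO (0.92 ± 0.11, limma adjusted p = 1.7e-05). For both genes the lowest KO array exceeded the highest WT array by more than 0.6. Ctsw was at 9.76, 10.10 and 9.84 in WT and at 10.93, 10.48 and 10.86 in KO (0.86 ± 0.12, limma adjusted p = 5.26e-05), and all 11 of its probe sets were higher, 7 of them called. Gzmb, which had missed the threshold in untreated cells, was at 6.92, 7.16 and 7.12 in WT and at 8.04, 7.51 and 7.62 in KO (0.66 ± 0.13, limma adjusted p = 0.0021). Ccl5 (0.59 ± 0.10), Eomes (0.47 ± 0.10) and Gzma (0.45 ± 0.10) rose without overlap of the arrays (limma adjusted p from 0.00029 to 0.00479).

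Prf1, Nkg7 and Tbx21 had the largest adjusted p. Prf1 was at 8.58, 8.47 and 8.59 in WT and at 9.02, 8.65 and 9.08 in KO irradiated thymocytes. The second KO array lay only just above the WT arrays, and the difference was 0.37 ± 0.11 (limma adjusted p = 0.0284). Of the 3 Prf1 probe sets 1 was called. Nkg7 was at 9.13, 9.38 and 9.72 in WT and at 10.56, 9.57 and 9.99 in KO, and its groups overlapped (0.63 ± 0.18, limma adjusted p = 0.0283). Of its 5 probe sets 0 were called. Tbx21 was the 1 member with KO arrays (8.33, 8.13, 8.19) below all WT arrays (8.39, 8.54, 8.50), as 13.4% of genes had, and its difference of -0.26 ± 0.09 did not pass (limma adjusted p = 0.0642). Without WT array 1, WT array 2, KO array 1 or KO array 3, Prf1 (0.28 to 0.38, adjusted p 0.0513 to 0.151) and Nkg7 (0.37 to 0.65, adjusted p 0.0554 to 0.15) did not pass, and without WT array 1 or KO array 1 Tbx21 was called lower (-0.30 and -0.31, adjusted p = 0.0378 and 0.049). With all 20 arrays in 1 fit 0 of the 10 members passed (smallest adjusted p = 0.0908, for Il2rb, whose range over 10 alternative settings was 3.74e-06 to 0.0908), and with only brighter probe sets 4 of the 8 that could be tested were called.

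**Figure D3:**
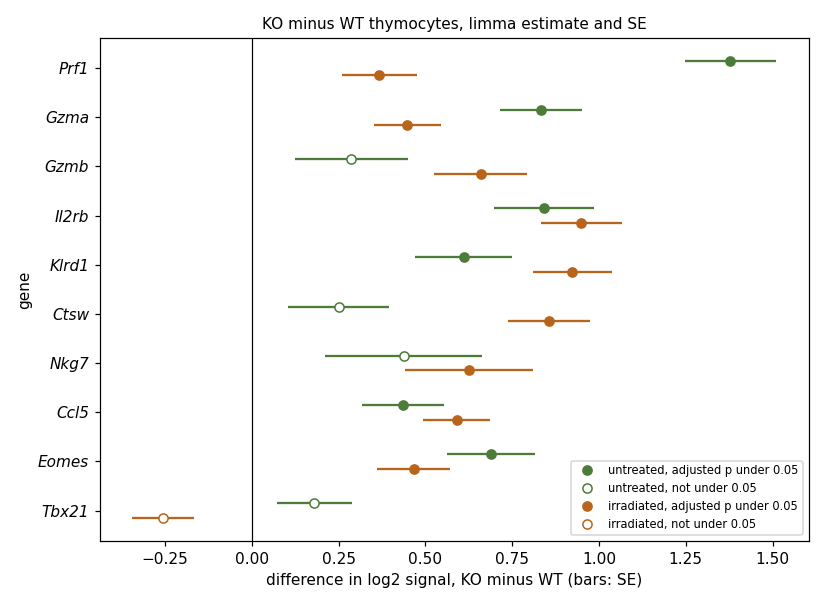
Difference in log2 signal, KO minus WT (x axis), for each of the 10 genes (y axis) in untreated (green) and irradiated (orange) thymocytes; points are limma estimates, bars are SE, and filled points have an adjusted p under 0.05. Prf1 has the largest difference in untreated cells (1.38) and a small one in irradiated cells (0.37), and Tbx21 is the only gene below 0 (-0.26, irradiated).

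The wider lists in irradiated KO thymocytes held calls in both directions. Of 13 type 1 cytokine and chemokine genes 7 were higher and 0 lower, led by the chemokine Ccl3 (1.71 ± 0.12), the sphingosine receptor S1pr1 (1.27 ± 0.10), Il18rap (0.62 ± 0.10) and Cxcr6 (0.46 ± 0.10). Of 23 transcription factors 9 were higher and 3 lower, led by Klf2 (1.53 ± 0.10), Nfil3 (1.07 ± 0.10), Id2, which NK cells need (1.23 ± 0.11), and Stat4 (0.69 ± 0.09). Of 12 NK receptors 5 were higher, Cd7 (1.32 ± 0.14), Slamf7 (0.84 ± 0.09) and Itgam (0.65 ± 0.11) among them, and Cd96 was lower (-0.55 ± 0.09). Of 15 genes listed under interleukin-2 and interleukin-15 signalling 5 were higher and 1 lower, with Il7r (0.60 ± 0.10), Pim1 (0.63 ± 0.14), Socs2 (0.38 ± 0.09) and Il2rg, the chain that pairs with Il2rb (0.38 ± 0.09), first. The adaptors had 3 higher and 1 lower of 12, led by Fcer1g (0.61 ± 0.10), granule processing and release had 3 higher and 2 lower of 13, led by Cst7 (0.77 ± 0.13), and of 4 further effectors Lta (0.53 ± 0.11) and Tnf (0.54 ± 0.13) were higher. The NK markers had means of 6.12 to 6.30 in WT and 6.16 to 6.35 in KO, and 0 of 6 could be tested. Macrophage and dendritic cell markers were higher in 4 of 5, with Lyz2 at 2.06 ± 0.12, both B cell markers were higher, and Maf (3.16 ± 0.10) and Cd163l1 (3.33 ± 0.15) were higher again. Of the 2 genes listed under innate-like T cells, Zbtb16 was called higher (8.03 to 8.38 in WT, 8.51 to 8.92 in KO) and Cd1d1 was not called. Of the 5 double-positive thymocyte markers 0 were higher and 2 lower. All 4 granulocyte markers were lower, a count with the same limit: they entered the test through WT arrays. S100a8 and S100a9 were below the filter on every irradiated array. The part of all these cells in the members' rise was not tested.

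Irradiation was asked about within each genotype. In WT thymocytes 7 of the 10 members fell and 0 rose (21.7% of genes were called lower and 13% higher), and in KO thymocytes 8 fell and 0 rose (23.7% lower and 15.1% higher). The 8 include Eomes, which was tested only because it is high in untreated KO thymocytes. In WT the fall was largest for Nkg7, Klrd1, Ctsw and Ccl5, each to less than the untreated level by more than 2-fold. The arrays of the irradiated and of the untreated samples carry file numbers from separate runs of numbers, so a difference between runs cannot be told apart from irradiation. Gfi1 probe sets also differed between irradiated and untreated KO thymocytes, by -3.91 to 7.09. The part of a possible difference in allele in the KO responses, and in their comparison with WT, was not tested.

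Nkg7 went from 10.85 and 10.78 in untreated to 9.13, 9.38 and 9.72 in irradiated WT thymocytes (-1.40 ± 0.21, limma adjusted p = 7.23e-05). Klrd1 (-1.19 ± 0.13), Ctsw (-1.17 ± 0.13), Ccl5 (-1.09 ± 0.11), Gzma (-0.92 ± 0.11) and Gzmb (-0.76 ± 0.15) also fell (limma adjusted p from 1.29e-06 to 0.000982). None of these genes had an irradiated WT array that reached the untreated ones. That held for 9 of the 10 members and for 33% of genes. Il2rb fell by 0.44 ± 0.13 (limma adjusted p = 0.0159), a call lost without irradiated WT array 1 (-0.32, adjusted p = 0.0654) or untreated WT array 1 (-0.30, adjusted p = 0.245). Prf1 (-0.16 ± 0.12, limma adjusted p = 0.308), Eomes (-0.29 ± 0.12, limma adjusted p = 0.0676) and Tbx21 (-0.02 ± 0.10, limma adjusted p = 0.916) did not pass. Without irradiated WT array 2 Eomes was called (-0.34, adjusted p = 0.0443).

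In KO thymocytes Gzma fell most, from 10.53 and 10.45 to 9.17, 9.21 and 9.20 (-1.30 ± 0.11, limma adjusted p = 1.76e-07). Nkg7 (-1.21 ± 0.21), Prf1 (-1.17 ± 0.12), Ccl5 (-0.93 ± 0.11), Klrd1 (-0.87 ± 0.13), Ctsw (-0.56 ± 0.13), Eomes (-0.51 ± 0.12) and Tbx21 (-0.45 ± 0.10) fell too (limma adjusted p from 1.61e-06 to 0.00335). Eomes entered the test through the untreated KO arrays, from which it fell, so its fall is a description. All 10 members had every irradiated KO array below every untreated KO array, as had 36.1% of genes. Gzmb (-0.39 ± 0.15, limma adjusted p = 0.0505) and Il2rb (-0.34 ± 0.13, limma adjusted p = 0.0526) just missed the threshold. Gzmb was called without irradiated KO array 1 (-0.54, adjusted p = 0.00544) and Il2rb without irradiated KO array 3 (-0.40, adjusted p = 0.0398). Tbx21 turned with the probe sets used: with only brighter ones, which leave its brightest, it was higher (0.51, adjusted p = 0.0375). With them Klrd1 was not called in KO (-0.098, adjusted p = 0.445) and its difference in WT was smaller, at -0.54. With all 20 arrays in 1 fit a single member was called in each genotype, Klrd1 in WT and Prf1 in KO.

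More NK receptors and adaptors were called lower than higher in both genotypes. In WT 7 of 12 NK receptors were lower and 1 higher, with Slamf7 (-1.68 ± 0.10), Cd226 (-1.58 ± 0.11) and Itgam (-1.43 ± 0.12) lower first, and in KO 10 were lower and 1 higher, the inhibitory receptor Tigit rising in both (0.84 ± 0.12 and 1.04 ± 0.12). The adaptors had 8 lower and 0 higher of 12 in each genotype, among them Fcer1g (-1.31 ± 0.11 in WT, -0.84 ± 0.11 in KO) and Tyrobp (-1.05 ± 0.13 and -1.26 ± 0.13). Granule processing and release had 7 lower and 0 higher of 13 in WT and 7 lower and 1 higher in KO, led by the granzyme inhibitor family genes Serpinb6b (-1.27 ± 0.11 and -1.32 ± 0.11) and Serpinb9 (-1.25 ± 0.16 and -1.03 ± 0.16). The transcription factors were mixed, with 3 higher and 3 lower of 23 in WT and 4 higher and 8 lower in KO. Zbtb7b (-1.55 ± 0.12 in WT) and Gata3 (-1.07 ± 0.10 in WT) fell, and Nfil3 rose (1.07 ± 0.11 in WT, 1.09 ± 0.11 in KO). Of type 1 cytokine and chemokine genes 2 were higher and 5 lower of 13 in WT, and 4 higher and 5 lower in KO. Markers of macrophages and dendritic cells (4 of 5 lower in WT, 5 of 5 in KO) and both B cell markers fell as well, Lyz2 among them (-2.82 ± 0.14 in WT, -1.34 ± 0.14 in KO). Itgax and the gamma delta T cell marker Il23r exceeded the filter only on the untreated KO arrays, and Csf1r and Ms4a1 only on untreated arrays. These genes entered the test through untreated arrays, where they are high, so their falls are a description. Of the double-positive thymocyte markers 4 of 5 were lower in each genotype, Dntt among them (-0.63 ± 0.12 in WT, -0.87 ± 0.12 in KO). The granulocyte markers were lower in 4 of 4 in WT and in 0 of 4 in KO, and the gamma delta T cell markers in 1 of 5 in WT and in 4 of 5 in KO. S100a8 and S100a9 exceeded the filter only on the untreated WT arrays, so their falls are a description. Of the CD8 T cell markers, which are not restricted to CD8 T cells, 0 of 3 were lower in WT and 1 in KO (Cd8b1, -0.29 ± 0.09). The mean of the NK markers went from 6.79 and 7.04 in untreated to 6.12 to 6.30 in irradiated WT thymocytes. The part of all these cells in the members' fall was not tested.

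**Figure D4:**
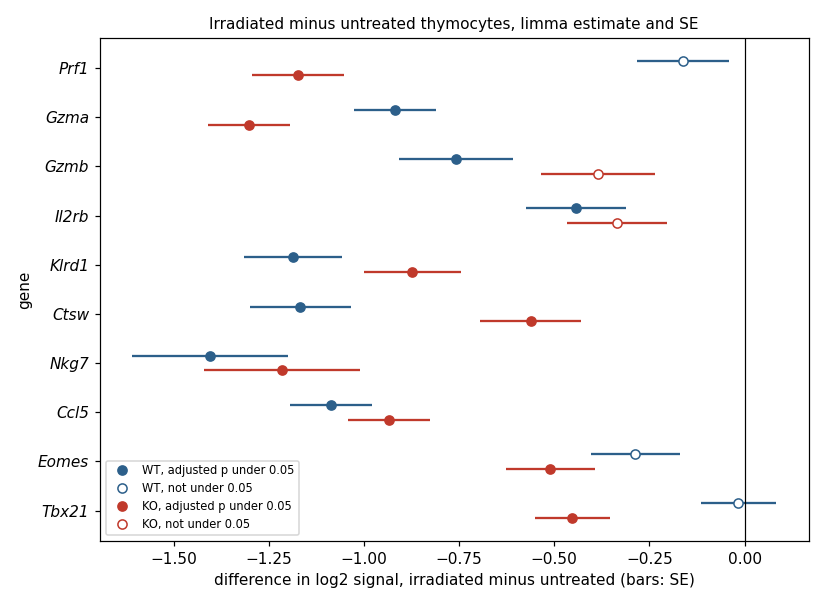
Difference in log2 signal, irradiated minus untreated thymocytes (x axis), for each of the 10 genes (y axis) in WT (blue) and KO (red); points are limma estimates, bars are SE, and filled points have an adjusted p under 0.05. Every estimate is below 0, and Prf1 shows the widest gap between genotypes (-0.16 in WT, -1.17 in KO).

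The size of the irradiation response differed between genotypes for 1 of the 10 members. Prf1 fell by 1.01 ± 0.17 more in KO than in WT thymocytes (limma, test of the difference, adjusted p = 0.00406), against 0.784% of all genes called lower and 1.88% called in either direction. Of its 3 probe sets, tested among 167016, 0 were called. They ran from -0.97 to -0.75, each smaller in size than the gene's estimate. The high Prf1 level of KO untreated thymocytes (10.03 and 10.15) was not found after irradiation, when KO arrays were at 9.02, 8.65 and 9.08. The call held in each of the 10 fits that left out 1 array (-1.09 to -0.88, adjusted p 0.00207 to 0.038). It was lost with only brighter probe sets (-0.82, adjusted p = 0.0535) and with all 20 arrays in 1 fit (adjusted p = 1, range over 10 alternative settings 0.00241 to 1). Ctsw (0.61 ± 0.19, limma adjusted p = 0.128) and Tbx21 (-0.44 ± 0.14, limma adjusted p = 0.145) did not pass. Ctsw was called without irradiated KO array 2 (0.74, adjusted p = 0.0177). For the other 7 members the 95% intervals of the difference lay between -0.71 and 0.82 and their adjusted p between 0.27 and 0.894, which does not show that the genotypes responded alike. In the wider lists, the response was more negative in KO for Runx3 (-0.84 ± 0.16), Il2ra (-0.71 ± 0.14) and Cxcr6 (-0.70 ± 0.15) and more positive for Id2 (1.13 ± 0.18), Klf2 (0.71 ± 0.15), Ccl3 (1.37 ± 0.19) and Itgam (0.97 ± 0.17).

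The ENU tumours were designed to ask what late deletion of Gfi1 changes in an established tumour, but no Gfi1 probe set was called lower in the 3 tumours labelled KO (0 of 8), so the direction below follows the labels. Of the 10 members 6 had all 3 arrays labelled KO above all 3 WT arrays: Klrd1, Ctsw, Ccl5, Il2rb, Eomes and Gzmb. Of these, 5 were among the 9 members bright enough to be tested, and 10.4% of genes tested had such groups. Of those 5, Klrd1 exceeded the filter only on arrays 1 and 3 of the ENU tumours labelled KO, and Eomes only on arrays 2 and 3 of these and on the second KO Notch array. Both entered the test through groups in which they are high, so the count is a description. No member passed the limma test, nor did any of the 13025 genes (0% called), so the differences are given as values. At an unadjusted p under 0.05 there were 4 members, Klrd1 among them with that limit, and 13.7% of genes in either direction.

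Klrd1 was at 6.15, 6.27 and 6.20 in WT and at 8.52, 7.76 and 8.05 in tumours labelled KO (1.90 ± 0.35, limma adjusted p = 0.253). The WT arrays lay far below the 40th percentile and the others near it. Ctsw was at 8.79, 9.55 and 9.12 in WT and at 10.59, 10.56 and 11.93 in KO (1.87 ± 0.38, limma adjusted p = 0.284). Ccl5 was at 8.81, 9.42 and 9.25 in WT and at 11.16, 10.72 and 11.17 in KO (1.86 ± 0.59, limma adjusted p = 0.349). For Ctsw and Ccl5 the groups were more than 1 unit apart at their nearest arrays. Il2rb was at 10.37, 9.90 and 10.67 in WT and at 12.20, 11.18 and 11.34 in KO (1.26 ± 0.30, limma adjusted p = 0.285). Eomes was at 6.80, 6.95 and 6.93 in WT and at 7.12, 8.45 and 8.77 in KO (1.22 ± 0.58, limma adjusted p = 0.368). Nkg7 was split: the KO arrays were at 8.71, 11.49 and 11.10 and overlapped the WT arrays at 8.36, 9.54 and 7.93 (1.83 ± 1.06, limma adjusted p = 0.402). Gzmb, too dim to be tested in tumours, was at 6.19, 6.27 and 6.30 in WT and at 6.80, 7.31 and 6.89 in KO. Prf1 (0.18 ± 0.31), Gzma (0.56 ± 1.01) and Tbx21 (-0.36 ± 0.52) had overlapping groups and limma adjusted p from 0.706 to 0.762. Gzma was high, 11.14 to 11.98, on 5 of the 6 arrays and at 9.55 on WT array 1, and without that array its difference was -0.23.

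The spread in these tests is set in part by the second KO Notch tumour array. With it left out of the fit 0 of 9 members passed, and 25 of all genes did. With all 20 arrays in 1 fit 4 members were called higher, namely Klrd1, Ctsw, Il2rb and Ccl5. Over the 11 alternative settings the count ran from 0 to 4, and it was 0 without any 1 of the 6 arrays. Macrophage and dendritic cell markers had means of up to 9.92 in WT and 9.86 to 11.10 in KO tumours, B cell markers 6.80 to 8.45 and 7.81 to 9.80, double-positive thymocyte markers 10.55 to 11.32 and 8.63 to 10.36, and NK markers 5.77 to 5.98 and 6.41 to 6.66. Of the NK markers, Klrk1 (5.81 to 6.21 in WT, 7.12 to 8.76 in KO), Klra8 (4.30 to 5.23, 5.64 to 7.73) and Klrb1c (4.74 to 5.24, 5.28 to 5.76) had KO arrays above WT arrays. The groups overlapped for Ncr1 (5.75 to 6.38, 5.97 to 6.23), Klra4 (6.79 to 7.04, 6.85 to 7.28) and Klre1 (6.08 to 6.38, 6.29 to 6.51). The part of all these cells in the members' levels was not tested.

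In Notch tumours 0 of the 9 members tested passed the limma test, as against 2 of 13025 genes (0.0154%), and the arrays of WT and KO overlapped for 8 of the 10 members. At an unadjusted p under 0.05 there was 1 member (5.99% of genes), Ccl5, at 8.87 and 10.02 in WT and at 9.89 and 12.49 in KO (1.74 ± 0.73, limma adjusted p = 0.806). Gzma was at 12.15 and 11.82 in WT and at 11.51 and 7.40 in KO. Its difference of -2.53 ± 1.23 (limma adjusted p = 0.806) was -0.47 without the second KO array. Ctsw, at 8.90 and 9.51 in WT and at 8.43 and 8.68 in KO, was the other member with both KO arrays below the WT arrays, as 17.4% of genes had (-0.65 ± 0.47, limma adjusted p = 0.855). For Ctsw and Klrd1 the KO difference in Notch tumours minus that in ENU tumours was -2.53 ± 0.60 and -1.87 ± 0.55, but 0 of 9 members and 0 of 13025 genes (0%) passed that limma test (adjusted p = 0.58 and 0.637), with 3 members at an unadjusted p under 0.05 (7.17% of genes).

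The second KO Notch array, the one with the B cell markers, carried the highest tumour values of Ccl5 (12.49), Tbx21 (10.18), Eomes (9.29) and Gzmb (8.89). The first KO Notch array was at 9.89, 7.82, 7.05 and 6.66 for these genes, within 0.1 of the range of the WT Notch arrays. Without the second array the KO difference was 0.44 for Ccl5, -0.47 for Tbx21, 0.0029 for Eomes and -2.22 for Nkg7. Without the first KO array, Gzma (-4.58, adjusted p = 0.0255), Ccl5 (3.04, adjusted p = 0.01) and Tbx21 (1.89, adjusted p = 0.0212) were called, as was Tbx21 in the difference between tumour types (2.25, adjusted p = 0.0479). These values then rest on the second KO array alone, which is assumed to vary like the other groups. WT Notch against WT ENU tumours gave 0 of 9 members (3 of 13025 genes, 0.023%, and 0 members at an unadjusted p under 0.05, against 7.42% of genes), with differences from -0.44 for Tbx21 to 1.37 for Nkg7.

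Against WT untreated thymocytes, which differ from the tumours in treatment and file numbers too, WT ENU tumours had lower Klrd1 (-2.25 ± 0.30), Ctsw (-1.91 ± 0.34) and Gzmb (-1.57 ± 0.42), with limma adjusted p of 0.000254, 0.00147 and 0.017, while 10.2% of genes were called lower and 9.87% higher. Gzmb did not pass without untreated WT array 1 or 2 (-1.35 and -1.78, adjusted p = 0.16 and 0.0648), and with only brighter probe sets its difference was 0.064 (adjusted p = 0.886). WT Notch tumours had lower Ctsw (-1.86 ± 0.37) and Klrd1 (-1.64 ± 0.33; 5.54% of genes) and higher Il2rb (1.07 ± 0.30, limma adjusted p = 0.038; 2.14% of genes). These 3 calls were all lost without WT Notch array 1 or either untreated WT array (adjusted p 0.0579 to 0.214), and Il2rb also without WT Notch array 2 (0.94, adjusted p = 0.156). With the second KO Notch array out of the fit 6 members passed in each comparison: Gzma was higher in both (1.48, adjusted p = 0.0423, and 2.32, adjusted p = 0.0135), Ccl5 was lower in both (-1.28 in ENU tumours), Nkg7 was lower in ENU tumours (-2.21) and Gzmb in Notch tumours (-1.05). Gzma was at 9.73 and 9.60 in WT untreated thymocytes and above 11 on 8 of the 10 tumour arrays.

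The order of the group means shows how unlike the members are. Prf1 was highest in KO untreated thymocytes (10.09 ± 0.08, SD, n = 2), and the WT Notch tumours next in order (9.14 ± 0.60, n = 2) did not reach it, while from there down to WT ENU tumours (8.47) each group's arrays overlapped those of the next. Gzma was highest in WT Notch tumours (11.98 ± 0.23, n = 2) and KO ENU tumours (11.70 ± 0.49, n = 3), which overlapped, and lowest in WT irradiated thymocytes (8.74 ± 0.17, n = 3). Il2rb was highest in KO ENU tumours (11.57 ± 0.55, n = 3). The KO ENU arrays of Il2rb did not overlap the next group. Klrd1, Ctsw and Nkg7 were highest in KO untreated thymocytes (9.07 ± 0.17, 11.32 ± 0.05 and 11.25 ± 0.02, n = 2), followed by WT untreated thymocytes, and Gzmb had the same first 2 groups (8.11 ± 0.03 and 7.82 ± 0.30). Ccl5, Eomes and Tbx21 had their highest mean in KO Notch tumours, where the 2 arrays were up to 2.6 units apart. The pooled SD within groups was 0.07 for Tbx21 to 0.29 for Nkg7 in thymocytes, and 0.38 for Il2rb to 1.67 for Nkg7 in tumours.

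Across the 10 thymocyte arrays all 45 pairs of members had a positive Pearson r (median 0.819), highest for Klrd1 with Ctsw and for Nkg7 with Ccl5 (0.96 each). Tbx21 was the least like the rest, with r from 0.0455 (Il2rb) to 0.551 (Nkg7). The share of positive pairs among all genes was not computed. The arrays share 4 groups, so these r describe the group means more than single arrays. Across the 10 tumour arrays 30 of 45 pairs were positive (median 0.329), and Gzma with Tbx21 was the most negative (-0.794), a pair to which the second KO Notch array contributes the lowest Gzma and the highest Tbx21. The genes most like each member over the thymocyte arrays had r between 0.947 and 0.992. They were Slc7a7, Fam111a and Cxcl9 for Prf1, Tlr1, Plin3 and Slamf7 for Gzma, Apool, Igj and Ly96 for Gzmb, Lpxn, Fez2 and Ecm1 for Il2rb, and Mreg, Fabp4 and Cd74 for Klrd1. For Ctsw they were H2-Q7, Ifitm3 and H2-Q6, for Nkg7 Cox16, Evi2b and Alg14, for Ccl5 Ifit3, Bank1 and Gm4759, for Eomes Snx9, Prr13 and Pik3ap1, and for Tbx21 Il2ra, Hsph1 and C230021P08Rik. Over the tumour arrays r ran from 0.922 to 0.981. The nearest genes there were Lime1, Zfp353 and Gjb1 for Prf1, Gata3, Iqgap2 and Gypc for Gzma, Ebf1, Siglecg and Dscam for Gzmb, Chd2, Ccl22 and S100a16 for Il2rb, and Rsad2, B930095G15Rik and Kndc1 for Klrd1. They were Tcea3, Ly6g5b and Ptgir for Ctsw, Mlc1, Clec12a and Lpar3 for Nkg7, Samhd1, Phactr2 and AW112010 for Ccl5, Tlr1, Ifng and Isg20 for Eomes, and Trav7d-2, Man1a and Ift20 for Tbx21. Ebf1 and Siglecg are B cell genes, and Gzmb was highest on the array with the B cell markers.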

How the data were processed

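Per the labels, total RNA was extracted with a Qiagen kit, amplified with a NuGEN kit, labelled with biotin and stained with streptavidin-phycoerythrin. The authors deposited values of 182058 probe sets on 20 arrays, read here as log2 signal (3.37 to 15.01). The normalization, the summary method and the log base were not given in the sources used here. Array medians lay between 9.08 and 9.27. GEO's annotation of this platform, possibly outdated, named 1 gene for 167016 probe sets, several for 3388 and none for 11654; only the first kind was used. All 10 members are current RefSeq symbols. The members have from 3 (Prf1) to 13 (Il2rb) probe sets, and 1 further probe set names Prf1 with another gene.

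For each gene, the median over mean-centred probe sets was taken per array and the average level of the probe sets restored. Tests covered genes that exceeded an array's 40th percentile on at least 2 arrays of the fit. Gzmb and Eomes did so on 5 of 20 arrays and Klrd1 on 9, so their levels near the floor are uncertain. Tests used limma 3.58.1 (lmFit, eBayes) in R 4.3.3 with Benjamini-Hochberg over all genes tested and a threshold of 0.05, on the 10 thymocyte arrays, the 10 tumour arrays or, for tumours against thymocytes, all 20; the method was tested on simulated data. The number of arrays, 2 or 3 per group, limits the precision. Values written a ± b are log2 differences and SE unless marked SD. Other settings were quantile scaling, a common array median, other summaries of probe sets, other filters, other arrays in the fit, trend and robust eBayes, a replicate block and leaving out arrays; leaving the second KO Notch tumour array out of every fit was chosen after seeing the data. The members and lists were chosen with earlier results of these data known. Named are all members, up to 4 called genes of each list per comparison and, for each member, the 3 genes of highest correlation. Some genes of the wider lists are not reported here. Python 3.11.15 and matplotlib 3.10.9 drew the figures.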

Additional observations from a re-analysis of the deposited data

Results flagged for a closer look

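Prf1 is listed because a test of the difference itself separated the genotypes. Its irradiation response was -1.01 (log2, KO minus WT) in thymocytes (limma adjusted p = 0.00406). The response was -1.17 in KO and -0.16 in WT, and for Prf1 every irradiated KO array was below every untreated KO array. Of the 3 Prf1 probe sets 0 were called for the difference (-0.97 to -0.75), and their responses in WT ran from -0.33 to -0.18.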

How the results depend on the processing

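Over the alternatives that left no array out, 973 of the members' results kept their direction and side of the threshold, 42 lost a call, 22 gained one and 14 turned direction; over fits without 1 array, 537 kept both, 28 lost a call, 10 gained one and 30 turned. With other arrays in the fit the members called were 1 for KO against WT in untreated and 0 in irradiated thymocytes, 1 for irradiation in WT and 1 in KO, 0 for the difference in irradiation response, 4 for ENU tumours, 1 for the difference between tumour types and 1 for WT Notch tumours against thymocytes. With only brighter probe sets there were 4 in irradiated KO thymocytes and 0 for the difference in irradiation response. With the second KO Notch tumour array out of the fit there were 6 for WT ENU and 6 for WT Notch tumours against thymocytes. The cause was not tested.

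With only brighter probe sets Tbx21 turned to -0.26 (KO, untreated), 0.27 (irradiation, WT), 0.51 (irradiation, KO), 0.24 (difference in response), 0.45 (ENU), -0.13 (Notch), -0.58 (difference between tumour types), 0.44 (WT Notch against ENU), -0.13 (WT ENU against thymocytes) and 0.32 (WT Notch against thymocytes), and Gzmb to 0.064 and 0.24 in the last 2. Il2rb turned to -0.041 in the difference in irradiation response with the mean of probe sets, and Eomes to 0.12 in the difference between tumour types with quantile scaling.

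Leaving out 1 array at a time, the members called ran from 3 to 5 (KO, untreated), 1 to 2 (difference in irradiation response), 0 to 3 (KO, Notch), 0 to 1 (difference between tumour types) and 0 to 2 (WT Notch against thymocytes). The members that turned ranged as follows. For irradiation in WT, Tbx21 ran from -0.048 to 0.028. For the difference in irradiation response, Il2rb ran from -0.040 to 0.25 and Nkg7 from -0.071 to 0.42. For KO against WT in ENU tumours, Gzma ran from -0.23 to 0.96 and Prf1 from -0.15 to 0.39. In Notch tumours, Prf1 ran from -0.65 to 0.20, Klrd1 from -0.53 to 0.59, Nkg7 from -2.22 to 1.33, Il2rb from -0.33 to 0.082 and Tbx21 from -0.47 to 1.89. For the difference between tumour types, Ccl5 ran from -1.42 to 1.18, Eomes from -1.22 to 1.02, Prf1 from -0.83 to 0.017 and Tbx21 from -0.11 to 2.25. For WT Notch against ENU tumours, Ctsw ran from -0.25 to 0.35 and Ccl5 from -0.29 to 0.86. Against thymocytes, Prf1 ran from -0.45 to 0.083 in WT ENU tumours, and Tbx21 from -0.61 to 0.20 and Nkg7 from -1.81 to 0.14 in WT Notch tumours.

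Deviations of same-numbered KO and WT arrays from their group means correlated with r from -0.34 to 0.22. With 2 arrays in each group both numbers give the same r by construction. Values this weak and few cannot decide whether the arrays were paired. With the replicate block 6, 9, 7 and 9 members were called for KO in untreated, KO in irradiated, irradiation in WT and irradiation in KO thymocytes, and 1 for the difference in response; it was 0 for the 4 comparisons within tumours, and 3 and 2 for WT ENU and WT Notch tumours against thymocytes. Dim signal limits Gzmb, Eomes and Klrd1.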
